A study of Homo sapiens with 4 samples.

Results

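The 2 arrays here named GALNT3/T6 KO replicates 1 and 2 are labelled as 2 double knockout clones of the A2780s cell line. Each clone was on its own array, against mock-transfected A2780s cells (Ctrl). These arrays are 2 of the 4 in the series and were picked out by their sample titles, with earlier results of these data known. The remaining 2 arrays compared GALNT3 KO clones with Ctrl. A2780s is an established human ovarian adenocarcinoma line. GALNT3 was targeted with CRISPR/Cas9, with a repair plasmid, puromycin selection and Cre excision of the cassette, and GALNT6 was then targeted in GALNT3 KO clones with lentiviral shRNA from a puromycin vector. The label KO therefore covers an edit of GALNT3 and a knockdown of GALNT6. The paper describes mock-transduced control clones with a scramble vector, but does not state whether the Ctrl of these arrays carried it. Transduction and its selection can therefore not be told apart from the loss of GALNT6. Each sample was 1 clone, and the labels do not say which GALNT3 KO clone each double KO clone came from. By the labels, Cy3 marked Ctrl RNA and Cy5 clone RNA on each of the 4 arrays. The methods speak of a reversed color for the Ctrl label, which does not settle whether dyes were exchanged on any array. The sign of every ratio below rests on the labelled orientation. A dye effect can therefore not be told apart from a difference between clone and Ctrl.

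GalNAc-transferases, the family of GALNT3 and GALNT6, add the first sugar, N-acetylgalactosamine, to serine and threonine residues of secreted and membrane proteins. This step begins mucin-type O-glycosylation, and the family members overlap in the proteins they modify. Other glycosyltransferases then extend and cap the sugar. Ovarian carcinomas are epithelial tumors with keratins and often with Müllerian factors such as PAX8, while lines from them can also carry mesenchymal genes such as VIM.

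Each value below is a log2 ratio of the clone channel over the Ctrl channel, given for replicate 1 first and replicate 2 second, and a signal is a normalized log2 intensity of 1 channel. Each array held 45015 spots, and between 86.9% and 93.8% of the noncontrol spots in a channel passed as well above background, with 0 saturated. A gene was called higher or lower when its Benjamini-Hochberg adjusted p from limma was at most 0.05 and its mean changed at least 1.5-fold. Of 27220 genes tested, 3862 (14.2%) were called higher than Ctrl and 4580 (16.8%) lower, together 31.0%. Each list count below is to be read beside these shares. The number of arrays limits the precision, and the spread of Ctrl itself was not measured.

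GALNT3 went against the label. Its log2 ratios were 4.80 and 5.08, with a mean of 4.94 (SE 0.10, adjusted p = 9.08e-05 from limma), so its signal was higher in the clone channel than in Ctrl on both arrays labelled GALNT3/T6 KO. The clone signals were 12.4 and 12.7. The Ctrl signals were 7.63 and 7.65 on these arrays against 6.19 and 6.30 on the GALNT3 KO arrays. On these arrays the lowest Ctrl signals well above background were 6.66 and 6.54. On the GALNT3 KO arrays GALNT3 stood at 0.13 and 0.24, which was not lower than Ctrl. By Western blot the paper reports complete loss of GALNT3 protein in its GALNT3 KO clones, and protein was not measured here. GALNT3 has 1 probe, at chr2:166604416-166604475 of hg19, and whether it lies outside the edited part of the gene is not known here. For this reason each group is named by its label throughout. GALNT6, read by 1 probe at chr12:51747906-51747965, stood at -0.66 and -0.69, with a mean of -0.67 (SE 0.08, adjusted p = 0.00334 from limma). Its mean lay 0.25 below that of the GALNT3 KO arrays, a difference that was not called (adjusted p = 0.212 from limma).

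Among the 17 GalNAc-transferases tested, 4 were higher and 4 lower than Ctrl, and the median was -0.12 against 0.03 for all genes tested, running from -0.17 to 0.07 among the alternatives. Beside GALNT3, GALNT14 was higher, at 1.14 and 3.41, and its replicates lay far apart. GALNT2 was higher at 0.89 and 1.07, and GALNT10 at 0.78 and 1.04. The largest falls in the family were those of GALNT4, at -2.66 and -2.59, and of GALNT12, at -2.47 and -2.49. The fall of GALNT6 was smaller, but its signals lay near background. GALNT16 was also lower (-0.49 and -0.70). GALNT1 and GALNT11 were not called, at -0.03 and -0.22 and at -0.46 and -0.28.

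Enzymes that extend and cap O-glycans also went both ways, with 7 of 16 higher and 3 lower. C1GALT1, which makes core 1, stood at 2.01 and 2.11, and its chaperone C1GALT1C1 at 1.82 and 1.62. The probes of C1GALT1 differed by more than 1.5 on the log2 scale. GCNT1 (3.39 and 3.61) and GCNT3 (1.87 and 1.59), which branch the core, were higher too. Of the sialyltransferases that cap the chain, ST6GALNAC5 was higher (2.83 and 2.89), as was ST3GAL1 (1.22 and 1.04). The lower ones were ST6GALNAC6 (-1.24 and -1.04), ST3GAL4 (-0.91 and -1.08) and ST3GAL2 (-0.79 and -0.94). Of 16 mucins and other O-glycosylated proteins, 5 were higher and 1 lower. PODXL, the sialomucin podocalyxin, stood at 6.43 and 7.07, and CD44, the hyaluronan receptor, at 5.24 and 5.67. MUC1 was higher at 0.84 and 1.44 (mean 1.14, SE 0.16, adjusted p = 0.00557 from limma). FN1, fibronectin, stood at 3.21 and 4.17 on its brightest probe, while its 3 probes ranged from -0.13 to 3.69 in their means. MUC15 was lower, at -3.66 and -3.87. MUC16, the CA125 antigen, was not called (0.11 and 0.00).

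Over all genes tested, 84.7% had values on both arrays in the same direction. Of the 8442 genes called, which were called from the mean of these arrays, this held for 8441. Over all genes tested the median difference between replicates, without sign, was 0.175. On both arrays 123 genes were at least 16-fold higher than Ctrl and 31 at least 16-fold lower. At 32-fold, 35 were higher and 4 lower. The paper compares clones with their corresponding Ctrl clones and does not state a common Ctrl RNA. The Ctrl channel, which has the same label on every array, was not the same for the largest rises. Over the 156 called genes with a mean at least 16-fold higher, its median signal was 10.0 and 9.99 on these arrays and 8.15 and 8.10 on the GALNT3 KO arrays, and the median difference was 1.40. Over the genes not called it was -0.10. The part of this shift in the results was not tested.

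The rises and falls below were ranked among called genes with a symbol, well above background in both channels of both arrays. Among the 15 largest rises, GPX1, a glutathione peroxidase, stood at 6.86 and 7.14 (SE 0.10), and S100A6, a calcium-binding protein, at 6.76 and 7.19. Annexins, which bind membranes in the presence of calcium, followed, with ANXA3 at 6.26 and 6.64 and ANXA1 at 6.02 and 6.03. ALDH1A3, which makes retinoic acid, stood at 5.96 and 6.63. EFEMP1, a matrix glycoprotein, was at 6.16 and 6.09, and LGALS3, the lectin galectin-3, at 6.20 and 5.34. SGK1 (5.27 and 6.41), a kinase, and RND3 (5.15 and 6.20), a small GTPase, were larger on replicate 2. S100A10, the annexin A2 partner, stood at 5.90 and 5.72, and EPAS1, which encodes the hypoxia factor HIF-2 alpha, at 5.72 and 5.81. PHLDA1 (6.10 and 6.50), KRT18 (5.41 and 5.95), LIMCH1 (5.62 and 5.57) and PODXL completed these rises. For ALDH1A3, EPAS1, KRT18, LIMCH1 and PHLDA1 the probes disagreed in size, and the lowest probe mean was 1.60, 1.04, 0.43, 2.18 and 2.19. On the GALNT3 KO arrays S100A10 (2.33 and 2.67), PHLDA1 (1.06 and 1.04) and GPX1 (0.62 and 0.65) also met the criteria for higher than Ctrl. The other rises did not.

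Among the 15 largest falls, SPRY2, a feedback inhibitor of receptor tyrosine kinases, stood at -5.19 and -5.63 (SE 0.14), and TCIM at -5.25 and -5.52. UNC5B, a netrin receptor, was at -5.01 and -5.22, and MGAT3, which adds the bisecting sugar to N-glycans, at -4.66 and -5.04. ISL1 (-4.65 and -4.61) and TBX1 (-4.51 and -4.74) encode transcription factors of the embryo. ID4, an inhibitor of helix-loop-helix factors, stood at -4.40 and -4.72. PRAME, a tumor antigen, was at -4.76 and -4.83, and NEFH, the heavy neurofilament, at -4.60 and -4.52. The other falls were in ANO3 (-5.13 and -5.38), RASGEF1A (-4.66 and -4.87), EMP1 (-4.87 and -4.49), MAP2K6 (-4.63 and -4.64), DOK6 (-4.65 and -4.54) and OCA2 (-4.39 and -4.80). Probes disagreed by more than 1.5 for DOK6, EMP1, MAP2K6, MGAT3, PRAME, RASGEF1A and TCIM. The probe mean nearest 0 was -2.69, -0.96, -0.06, -0.06, -1.40, -1.65 and -2.49, in that order. MAP2K6 and MGAT3 each had a probe with hardly any change. The adjusted p of the 30 genes ran from 9.08e-05 to 0.000404.

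**Figure D1:**
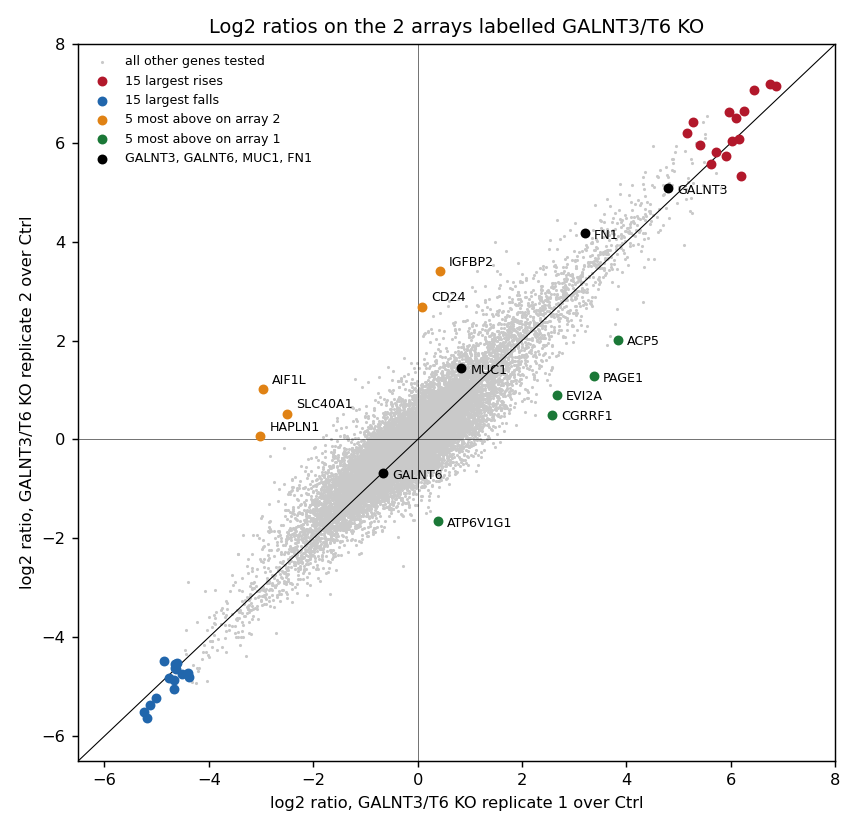
Log2 ratio of clone over Ctrl on replicate 1 (horizontal) against replicate 2 (vertical) of the arrays labelled GALNT3/T6 KO, 1 point for each gene. The largest rises and falls lie near the diagonal of equal values, GALNT3 at 4.80 and 5.08 among the high genes, and the genes that differ most between the replicates, such as AIF1L at -2.97 and 1.01, lie away from it.

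Keratins of simple epithelia and several desmosome and tight junction genes were higher in the clone channel. Of 47 epithelial genes tested, 23 were higher and 1 lower, with a median of 0.70. In RNA of a whole culture, more cells that express a gene and more RNA for each cell cannot be told apart. KRT18 and its partner KRT8 stood at 5.41 and 5.95 and at 2.59 and 3.06. KRT19 was at 4.31 and 5.32 and KRT7 at 2.62 and 3.16. KRT18 and KRT8 have near-identical pseudogene copies, so their probes may read more than 1 locus. Desmosome genes were higher as well, with DSP at 2.25 and 2.15, PKP3 at 2.27 and 2.15, DSG2 at 1.64 and 1.98 and PKP2 at 1.58 and 1.82. Of the tight junction genes, CLDN1 (3.70 and 3.94), OCLN (1.99 and 2.05) and MARVELD2 (1.60 and 2.34) were higher. MAL2, a protein of apical transport, stood at 4.91 and 5.42, and the protease inhibitors SLPI and SPINT2 at 4.71 and 5.14 and at 2.97 and 3.28. The epithelial transcription factor ELF3 was at 1.71 and 1.81.

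Of the 47 genes, 23 were not called. CDH1, E-cadherin, was called higher, at 0.99 and 0.51, but lost its call in 5 of 16 alternatives, with clone signals of 8.46 and 7.86 against Ctrl signals of 7.47 and 7.35. EPCAM was not called and split the replicates, at -0.05 and 1.36. The splicing factors ESRP1 (-0.04 and 0.01) and ESRP2 (0.25 and 0.00) were not called. Neither were CLDN3 (-0.09 and 0.00), CLDN4 (0.09 and 0.14), OVOL1 (0.09 and -0.11), OVOL2 (-0.22 and 0.14) and GRHL2 (0.15 and 0.22), whose Ctrl channel was not well above background. KRT80 was lower on its brightest probe, at -2.41 and -3.28, but the mean of its probes was 0.18 and not called. The Ctrl channel moved with the keratins, as KRT18 had Ctrl signals of 13.4 and 12.6 here and 10.6 and 10.3 on the GALNT3 KO arrays. For KRT19 these signals were 14.4 and 13.2 here and 11.4 and 11.1 there. The part of this in the keratin ratios was not tested.

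Genes of mesothelium, the lining of the peritoneal cavity, were measured through 9 genes, of which 4 were higher and 0 lower. They were ITLN1, intelectin (3.48 and 3.54), the transcription factor BNC1 (3.59 and 3.33), LRRN4 (2.50 and 1.95) and CALB2, calretinin (0.72 and 2.21). CALB2 differed most between the replicates. UPK3B (0.54 and 0.07), PDPN (0.45 and 0.13) and HAS1 (-0.24 and -0.11), which also mark mesothelium, were not called. At an unadjusted p of at most 0.05 from limma, 5 of the 9 were higher and 0 lower.

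Müllerian and ovarian carcinoma genes gave 6 higher and 4 lower of 25, or 24% and 16%, against 14.2% and 16.8% of all genes tested. GATA6, a transcription factor, led them at 5.00 and 5.10. PGR, the progesterone receptor, stood at 1.91 and 2.93, PAX8 at a mean of 1.21 (SE 0.09), MSLN, mesothelin, at 1.15 and 1.01, WT1 at 0.80 and 1.23 and LHX1 at 0.86 and 1.06. Lower were LHX9 (-2.53 and -2.29) and ARID3B (-2.03 and -2.12), both transcription regulators, WFDC2, the HE4 antigen (-1.15 and -1.33), and CRABP2 (-1.12 and -0.93). ESR1 (-0.19 and -0.22), SOX17 (0.08 and -0.05) and EMX2 (0.25 and 0.82) were not called. The ovarian markers PAX8 and WFDC2 therefore moved in opposite directions.

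Mesenchymal genes split as well, with 14 of 39 higher, 9 lower and a median of 0.20. Higher were the matrix genes SPARC (3.17 and 3.69), COL12A1 (3.00 and 3.80), COL5A1 (1.56 and 2.36) and COL1A1 (1.77 and 2.20). The matrix cross-linker LOX stood at 3.61 and 3.91, the receptor PDGFRB at 3.09 and 3.79, the protease FAP at 2.76 and 3.00 and CDH2, N-cadherin, at 2.40 and 2.68. Lower were VIM, vimentin (-2.84 and -1.87), smooth muscle actin ACTA2 (-2.46 and -1.99), the transcription factor TWIST1 (-2.11 and -2.07) and PDGFRA (-2.37 and -1.51). The 2 receptors for platelet-derived growth factor went opposite ways, and so did TWIST2 (1.02 and 1.60) and TWIST1. The Ctrl signal of VIM was 19.1 on both of these arrays, against 17.3 and 17.6 on the GALNT3 KO arrays.

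Lists of 7 other lineages were counted in the same way, beside 14.2% higher and 16.8% lower over all genes tested. Their shares ran from 0% to 21.7% higher and from 0% to 28.6% lower. Of 16 squamous and basal genes 2 were higher and 1 lower, and KRT5 (0.59 and 0.41), KRT14 (-0.10 and -0.21) and TP63 (-0.01 and -0.28) were not called. Of 13 leukocyte genes 2 were higher and 0 lower (1 at an unadjusted p of at most 0.05), with PTPRC, the leukocyte common antigen, at 0.05 and 0.07 and CD68, a lysosomal protein, at 1.47 and 1.94. Of 10 endothelial genes 2 were higher and 1 lower, with CDH5 at -0.16 and -0.13. Of 16 hepatocyte and endoderm genes 1 was higher and 1 lower, the latter being CDX2 (-2.01 and -1.40). Of 14 muscle genes 0 were higher (3 at an unadjusted p of at most 0.05) and 4 lower, among them CNN1, calponin (-3.88 and -3.73). Of 11 melanocyte genes 2 were higher and 1 lower, and TYRP1 stood at -1.89 and -2.43. Of 23 neural genes 5 were higher and 2 lower, with UCHL1, a deubiquitinase, at 3.62 and 3.76 and the progenitor filament NES at -1.75 and -1.50. All 13 leukocyte genes were well above background in both channels by the scanner software, so that flag does not mark expression of a cell type.

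Several oncofetal genes were lower. Of 18 pluripotency and oncofetal genes, 8 were lower and 1 higher, with a median of -0.30. HMGA2, a chromatin protein of the embryo, stood at -3.60 and -3.06, and the RNA-binding protein IGF2BP1 at -3.42 and -3.05. TRIM71 (-3.18 and -3.03) and LIN28B (-2.65 and -3.07), which act in the let-7 circuit, were also lower, as were GPC3 (-2.73 and -2.98) and SALL4 (-2.11 and -2.44). The probes of HMGA2 and IGF2BP1 disagreed by more than 1.5. POU5F1 was not called (0.22 and 0.15), and IGF2 was higher at 0.48 and 2.05 but lost its call in 9 of 16 alternatives. The median of the list was -0.16 on replicate 1 and -0.05 on replicate 2, and ran from -0.44 to 0.01 among the alternatives, changing sign without the filter on dim probes.

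**Figure D2:**
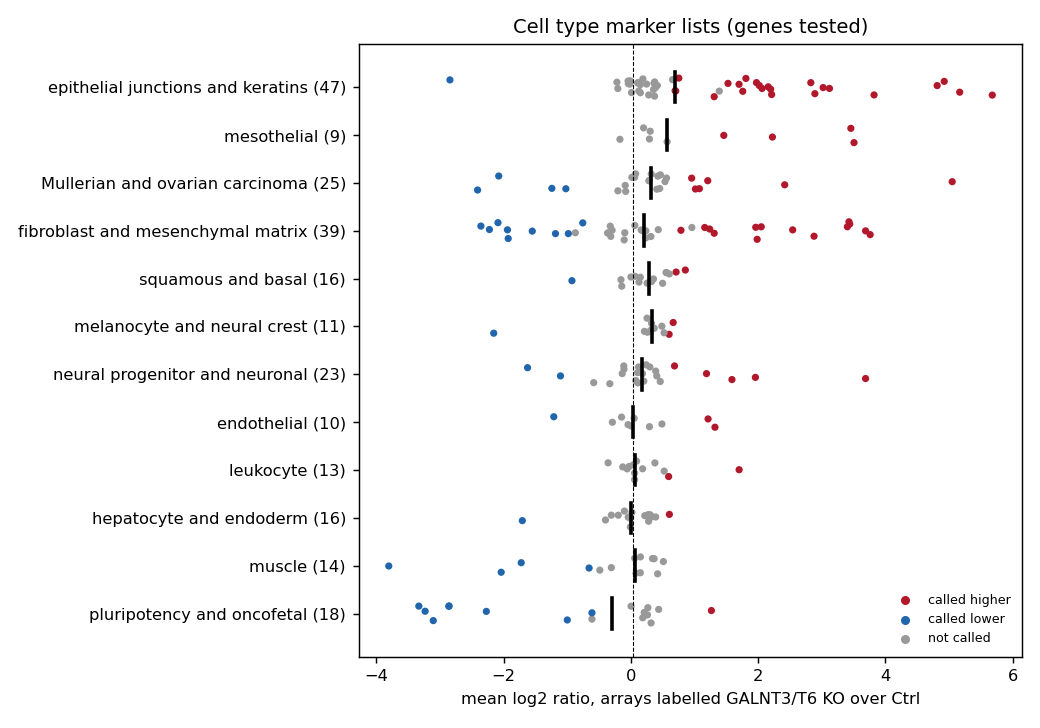
Mean log2 ratio of the arrays labelled GALNT3/T6 KO over Ctrl (horizontal) for each gene of 12 marker lists (vertical, with the number tested), coloured by call, with a bar at the list median and a dashed line at the median of all genes, 0.03. Epithelial genes spread up to KRT18 with a median of 0.70, fibroblast genes spread to both sides, and the oncofetal list has a median of -0.30.

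HOX genes, which record the position of a cell along the body axis, changed by cluster. In HOXB 8 of 10 genes were lower and 0 higher, with a median of -2.23. HOXB9 stood at -3.75 and -3.41, HOXB6 at -3.33 and -3.58 and HOXB13 at -2.36 and -2.30, while HOXB7 (0.23 and -0.17) and HOXB1 (0.00 and -0.04) were not called, and 0 genes of HOXB or HOXC were higher at an unadjusted p of at most 0.05 from limma. In HOXC 5 of 8 were lower and 0 higher. HOXC9 stood at -2.49 and -2.73, and HOXC12 was at least 10.5-fold lower, a bound because its clone channel was not well above background. HOXA went up at one end and down at the other. HOXA4 (4.25 and 4.47), HOXA7 (3.65 and 3.84), HOXA5 (2.74 and 2.89) and HOXA2 (1.60 and 1.49) were higher and HOXA13 (-2.84 and -2.40) lower, with HOXA9 (0.42 and 0.30) not called. In HOXD 2 of 8 were lower, HOXD3 (-2.45 and -2.16) and HOXD10 (-0.58 and -1.07), and HOXD10 lost its call in 7 of 16 alternatives. Probes disagreed by more than 1.5 for HOXA13, HOXB3 and HOXB4. The HOX medians moved by up to 0.73 among the alternatives, the most for HOXA.

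**Figure D3:**
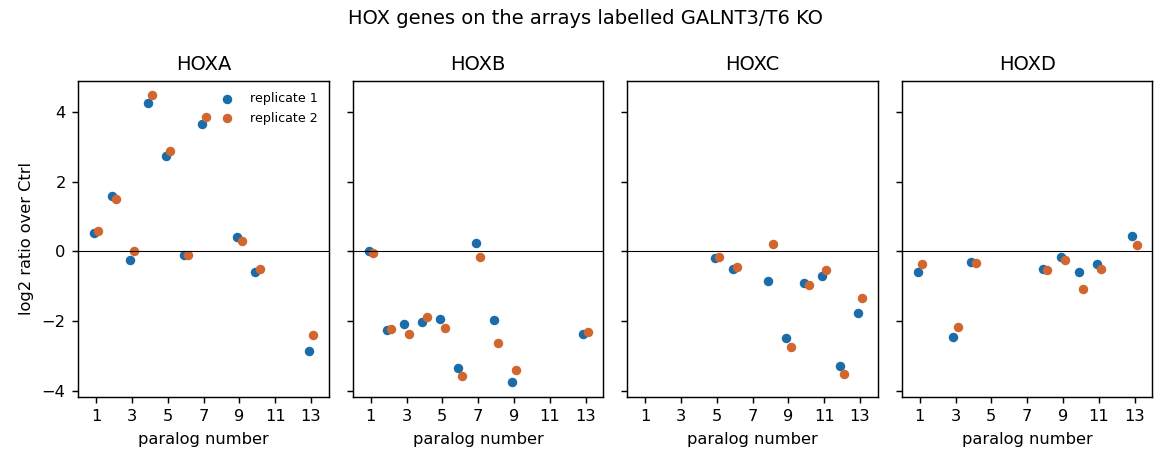
Log2 ratio over Ctrl (vertical) of each HOX gene tested, by paralog number within its cluster (horizontal), for replicates 1 and 2 of the arrays labelled GALNT3/T6 KO. The points of both replicates lie close together, HOXB genes lie near or below 0, and HOXA4, HOXA5 and HOXA7 lie between 2.74 and 4.47.

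YAP is a coactivator that binds TEAD factors and raises genes of growth and matrix contact when cells spread. Of 22 target genes tested, 18 were higher and 0 lower (1 at an unadjusted p of at most 0.05 from limma), against 14.2% of all genes higher, and the median was 2.08. CCN1 stood at 3.48 and 4.44 and CCN2 at 3.19 and 3.03, both secreted matrix proteins. F3, tissue factor, was at 4.06 and 3.91 and ANKRD1, a nuclear ankyrin protein, at 3.56 and 3.28. AXL, a receptor tyrosine kinase, stood at 2.22 and 2.36. ASAP1, AJUBA, PTPN14 and LATS2 were not called, of which LATS2, a kinase of the pathway, was at -0.56 and -0.60. Caveolae, the small pits of the plasma membrane, followed with 7 of 8 genes higher and a median of 2.84. CAV1 stood at 3.38 and 3.83, CAV2 at 2.84 and 2.86, CAVIN2 at 3.90 and 4.41 and EHD2 at 2.57 and 3.11. CAVIN1 split the replicates, at 0.72 and 2.39, and lost its call in 6 of 16 alternatives.

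The TEAD motif GGAATG was searched on both strands in the 250 bases before the gene starts of the RefSeq promoter table (GRCh38.p14). It stood in 11.9% of 35116 promoters and in those of 9 of the 16 targets with a promoter entry. Of the 9, 7 were called higher, beside 18 of 22 in the whole list. The 11.9% counts promoters, while a target counted if any of its promoters matched. CCN2 and ANKRD1 are shown because they rose by similar amounts and carry several matches, in capitals. They were picked after their values were seen.
CCN2 (chr6:131951373-131951622, minus strand): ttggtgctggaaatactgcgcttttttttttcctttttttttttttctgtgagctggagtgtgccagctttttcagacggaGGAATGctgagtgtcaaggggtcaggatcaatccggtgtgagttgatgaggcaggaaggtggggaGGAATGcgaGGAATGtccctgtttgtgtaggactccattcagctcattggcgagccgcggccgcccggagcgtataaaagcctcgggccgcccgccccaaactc
ANKRD1 (chr10:90921088-90921337, minus strand): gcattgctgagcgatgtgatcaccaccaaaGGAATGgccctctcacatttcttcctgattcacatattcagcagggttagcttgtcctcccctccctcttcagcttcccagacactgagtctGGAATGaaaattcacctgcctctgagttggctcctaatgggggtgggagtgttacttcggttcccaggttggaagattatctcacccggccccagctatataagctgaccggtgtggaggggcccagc
In CCN2 the matches begin 169, 104 and 95 bases before the gene start, and in ANKRD1 220 and 128 bases before it. A match describes the letters only.

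Integrins and laminins, through which cells hold the basement membrane, gave 12 of 29 higher and 1 lower. Of the laminin chains, LAMA3 stood at 3.02 and 3.62 and LAMB3 at 2.05 and 2.99. LAMB1 stood at 4.88 and 5.58. The laminin receptors ITGA3 (2.89 and 3.15) and ITGA6 (2.16 and 2.71) were higher, their partner ITGB1 was not called (-0.30 and 0.05), and ITGAV was lower (-1.68 and -2.23). S100 proteins and annexins were higher in 13 of 27 and lower in 4, the latter S100A4 (-1.62 and -2.23), ANXA6 (-2.82 and -1.82), S100A13 (-1.35 and -1.78) and S100A1 (-0.89 and -0.98). Among cadherins and protocadherins, PCDH9 (-4.13 and -4.45) and CDH10 (-3.20 and -3.45) were lower and CDH4 (1.91 and 2.55) and CDH13 (1.38 and 2.64) higher.

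Interferon-stimulated genes are driven by IRF and related factors and act against viruses. Of 43 tested, 37 were higher and 2 lower, with a median of 1.38. The DNA sensor IFI16 stood at 5.19 and 5.29, SAMD9 at 4.45 and 4.61, the GTPases GBP3 and GBP1 at 4.61 and 4.19 and at 3.46 and 3.56 and the tether BST2 at 3.34 and 3.73. The factors IRF7 (3.29 and 3.29) and IRF9 (1.46 and 2.13) were higher. Classical members moved less, with ISG15 at 0.69 and 0.49, a call lost in 5 of 16 alternatives, and RSAD2 at 0.67 and 0.74. IFIT2 (1.29 and 2.38) and IFIT3 (0.74 and 1.53) were higher, while their neighbors in the family IFIT1 (-1.28 and -0.85) and IFIT5, at a mean of -0.88 (SE 0.10), were lower. The GALNT3 KO arrays had a median of 0.03 over this list. Whether Ctrl was transduced is not stated, so the effect of lentiviral transduction cannot be told apart here.

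The interferon response element was searched as GAAA, any 2 bases and GAAA on both strands in the same 250 bases. It stood in 3.02% of 35116 promoters and in those of 21 of the 32 genes of the list with a promoter entry. Of the 21, 17 were called higher, beside 37 of 43 in the whole list. The 3.02% counts promoters, while a gene counted if any of its promoters matched. BST2 and IFI6 are shown as genes that rose and IFIT1 as one that fell, since all carry matches, in capitals. They were picked after their values were seen.
BST2 (chr19:17405631-17405880, minus strand): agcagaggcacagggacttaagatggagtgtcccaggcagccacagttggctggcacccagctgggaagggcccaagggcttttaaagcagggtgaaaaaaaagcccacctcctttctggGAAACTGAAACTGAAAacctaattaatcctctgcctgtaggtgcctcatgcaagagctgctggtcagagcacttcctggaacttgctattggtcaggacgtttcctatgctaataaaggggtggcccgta
IFI6 (chr1:27672193-27672442, minus strand): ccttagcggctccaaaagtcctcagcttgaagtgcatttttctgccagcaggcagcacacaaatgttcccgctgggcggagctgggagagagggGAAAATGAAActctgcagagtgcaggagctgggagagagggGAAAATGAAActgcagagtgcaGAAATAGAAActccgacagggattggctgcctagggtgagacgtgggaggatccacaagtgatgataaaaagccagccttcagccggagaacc
IFIT1 (chr10:89392373-89392622, plus strand): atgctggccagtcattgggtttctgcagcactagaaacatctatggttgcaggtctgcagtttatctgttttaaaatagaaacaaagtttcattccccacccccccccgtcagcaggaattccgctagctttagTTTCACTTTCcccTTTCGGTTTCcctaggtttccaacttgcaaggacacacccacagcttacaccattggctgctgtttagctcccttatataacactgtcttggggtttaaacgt
The matches begin 130 and 124 bases before the gene start in BST2, where they overlap, and 156, 115 and 93 bases before it in IFI6. In IFIT1 they begin 116 and 103 bases before it and read on the other strand. IFI6 stood at 2.01 and 2.50.

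**Figure D4:**
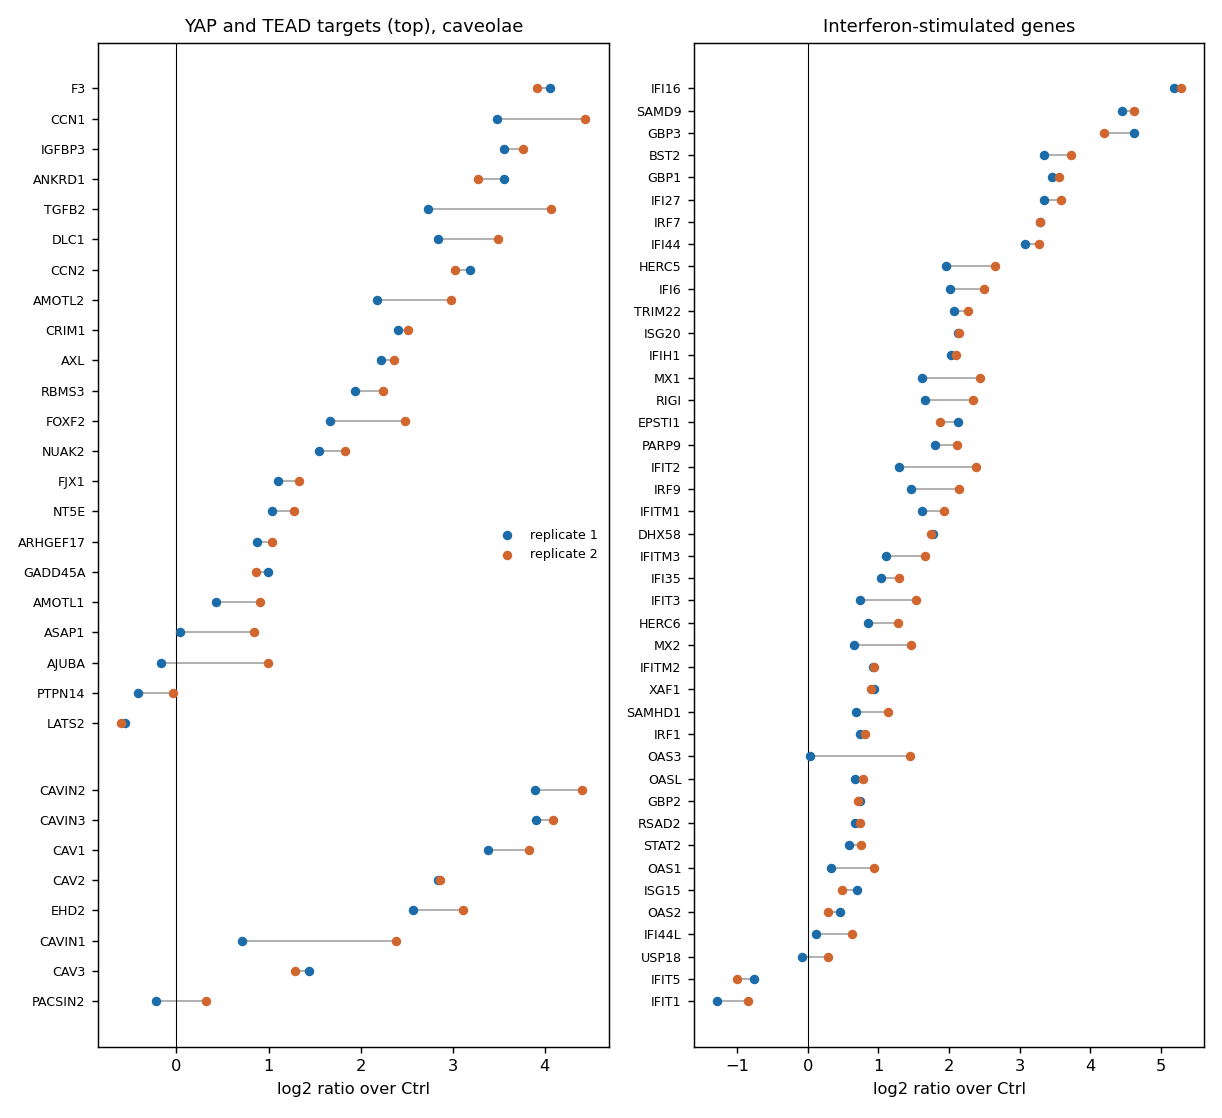
Log2 ratio over Ctrl (horizontal) on replicates 1 and 2 of the arrays labelled GALNT3/T6 KO for each target of YAP and TEAD and each caveolar gene (left) and the interferon-stimulated genes (right, 1 tested gene not shown). F3 and CCN1 head the targets with means near 4, CAVIN1 is far apart between replicates, and IFIT1 and IFIT5 lie below 0 on both arrays.

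Antigen presentation genes were higher in 16 of 27 and lower in 0 (2 at an unadjusted p of at most 0.05 from limma), with a median of 1.00. The immunoproteasome subunits PSMB8 and PSMB9 stood at 3.77 and 3.55 and at 2.87 and 2.42, and the peptide transporter TAP1 at 1.27 and 1.56. HLA-B and HLA-C are near-identical in sequence, so their probes are not separate evidence, and HLA-B stood at 1.32 and 1.62. HLA-DPB1, a class II chain, was at 2.84 and 2.87, while CD74, the class II chaperone, was not called (-0.27 and -0.29). Of 21 inflammasome and caspase genes, 9 were higher, 3 lower and 9 not called, with a median of 0.48. The inflammatory caspase CASP4 stood at 5.18 and 5.21, CASP1 at 5.15 and 5.06 and CASP5 at 3.79 and 3.91. CARD16 (4.75 and 4.69) resembles CASP1 in sequence, and its probe may read both. Their adaptor PYCARD stood at a mean of 2.86 (SE 0.13), and IL18, a cytokine that CASP1 cleaves, at 4.63 and 4.67. Among 30 cytokines and related genes 13 were higher and 5 lower, with ICAM1 at 3.89 and 3.86, IL6 at 2.23 and 2.59, CXCL10 at -1.27 and -1.58 and CXCL11 at -2.42 and -2.90. CXCL10 and CXCL11 are themselves interferon-induced chemokines.

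Feedback genes of the ERK kinases did not move as 1 block, with 9 of 26 higher and 11 lower. Beside SPRY2, SPRY1 stood at -3.31 and -3.24, SPRY4 at -2.16 and -2.11, the ERK phosphatase DUSP6 at -4.45 and -3.85 and EGR1 at -2.95 and -2.48. DUSP1 (3.49 and 3.19) and DUSP4 (1.54 and 1.44), phosphatases of the nucleus, were higher. In the EGF family, NRG1 (2.61 and 3.09), EGFR (1.31 and 1.54) and HBEGF (1.02 and 1.17) were higher and the receptors ERBB4 (-2.99 and -3.35) and ERBB2 (-1.22 and -0.72) lower. Of 32 TGF-beta and BMP genes 8 were higher and 12 lower. The ligand TGFB2 (2.73 and 4.06), the receptor TGFBR2 (3.42 and 3.54) and SMAD3 (2.77 and 3.17) were higher. All 4 ID genes, targets of BMP signaling, were lower, ID1 at -2.38 and -0.96, ID2 at -1.03 and -1.30, ID3 at -2.08 and -1.86 and ID4 as above. BMP7 stood at -3.36 and -3.08 and BMP4 at 3.48 and 3.15.

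In the Wnt list 12 of 42 genes were higher and 12 lower. The receptors FZD7 (-4.46 and -4.26) and FZD8 (-4.31 and -4.55) were lower and FZD6 (2.85 and 2.70) higher. WNT5A, a ligand, stood at 2.91 and 4.23 and the antagonist DKK3 at 5.27 and 5.20. Among the alternatives DKK3 ran from 2.71 to 5.27. The targets AXIN2 (0.35 and 0.24) and LGR5 (-0.09 and -0.24) were not called. In the Notch list 2 of 20 were higher and 3 lower, both below the 14.2% and 16.8% of all genes tested. The ligand JAG1 stood at 1.78 and 1.74 and the target HEY1 at -3.41 and -4.16. Among 44 axon guidance genes 14 were higher and 8 lower, with NTN4 at 4.10 and 4.39, ROBO1 at -3.69 and -4.02 and SEMA3D at -3.36 and -3.88.

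Cell cycle lists differed from each other. The inhibitors CDKN2A (2.84 and 2.92), CDKN2B (2.59 and 3.17) and CDKN1C (2.86 and 3.55) were higher, and so were the kinase CDK6 (4.21 and 4.84) and CCNA1 (3.30 and 3.70). CDKN1A, the p53 target p21, was not called (0.23 and 0.70). CCND2 (-1.60 and -2.07) and CCNE1 (-1.77 and -1.41) were lower. Of 37 DNA replication genes 0 were higher and 17 lower, with the licensing factor CDT1 at a mean of -1.54 (SE 0.23), ORC1 at -1.88 and -1.15 and GINS4 at -1.82 and -1.42. At an unadjusted p of at most 0.05 from limma, 2 were higher and 21 lower. The GALNT3 KO arrays had a median of -0.40 over this list, and set directly against them 3 genes were higher and 7 lower. The helicase subunits MCM2, MCM4 and MCM7 were not called, and their replicates lay on both sides of 0, at -0.89 and 0.27, at -1.16 and 0.38 and at -0.48 and 1.00. Among 31 mitosis genes 3 were higher and 4 lower, both below the 14.2% and 16.8% of all genes tested. Of 30 p53 targets 16 were lower, among them BAX (-2.58 and -1.73), SESN1 (-2.06 and -2.04) and DDB2 (-2.24 and -1.73), and 6 higher, among them PLK2 (4.21 and 4.34) and PMAIP1 (3.01 and 3.17).

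Redox, retinoid and lysosomal genes also changed. Of 33 glutathione and NRF2 genes 16 were higher and 7 lower. Beside GPX1, MGST1 stood at 2.85 and 3.08 and TXNRD1 at 2.00 and 2.33, while the aldo-keto reductases AKR1C1 (-2.96 and -2.18) and AKR1C3 (-2.93 and -2.15), of related sequence, and the quinone reductase NQO1 (-1.93 and -2.25) were lower. In retinoid metabolism 5 of 17 were higher and 5 lower. Beside ALDH1A3, RARRES1 (4.12 and 4.14) and DHRS3 (3.11 and 3.23), both induced by retinoic acid, were higher. RDH10, which makes retinal, was lower (-4.08 and -3.06). The receptor RARB was at least 3.71-fold lower, a bound since its clone channel was not well above background. Lysosomal genes were higher in 13 of 26 and lower in 5, with the proteases CTSA (3.05 and 3.70), CTSC (2.89 and 3.04) and CTSH (2.78 and 2.50) higher and CTSK (-2.13 and -3.15) lower.

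The 2 clones were not alike in every gene. Replicate 2 was at least 2-fold above replicate 1 in 548 genes (2.01% of those tested), and the reverse held for 259 (0.952%). With 1 array for each clone, this difference has no replicate check. AIF1L, an actin-bundling protein, stood at -2.97 and 1.01, HAPLN1, a link protein of the matrix, at -3.01 and 0.07 and the iron exporter SLC40A1 at -2.51 and 0.52. IGFBP2 was at 0.43 and 3.40 and CD24, a mucin-like surface antigen, at 0.09 and 2.69. CD24 has near-identical copies elsewhere in the genome. Higher on replicate 1 were PAGE1 (3.37 and 1.27), CGRRF1 (2.57 and 0.50), ATP6V1G1 (0.39 and -1.66), ACP5 (3.83 and 2.02) and EVI2A (2.67 and 0.90). Of these 10 genes PAGE1, ACP5 and EVI2A were called higher and the rest were not called.

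Whole lists also lay apart between the clones. Glycolysis had a median of -0.43 on replicate 1 and 0.43 on replicate 2, with the glycolytic enzyme ENO1 at -1.19 and 0.27, PGK1 at -0.76 and 0.94 and LDHA at 0.36 and 1.58. DNA replication stood at -0.85 and -0.28. The 19 reference genes had medians of -0.01 and 0.62, with replicate 2 higher in 15. ACTB was at -0.70 and 0.71. Mitochondrial respiratory chain genes went the other way, with medians of 0.34 and -0.17 and replicate 2 higher in 12 of 42. Ribosomal protein genes stood at 0.55 and 0.23. With genes ranked by Ctrl signal into 4 bins of equal size, the median difference of replicate 2 from replicate 1 was 0.09 in the brightest bin and between -0.02 and 0.01 in the others. These lists hold bright genes, and the part of brightness in their medians was not tested.

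**Figure D5:**
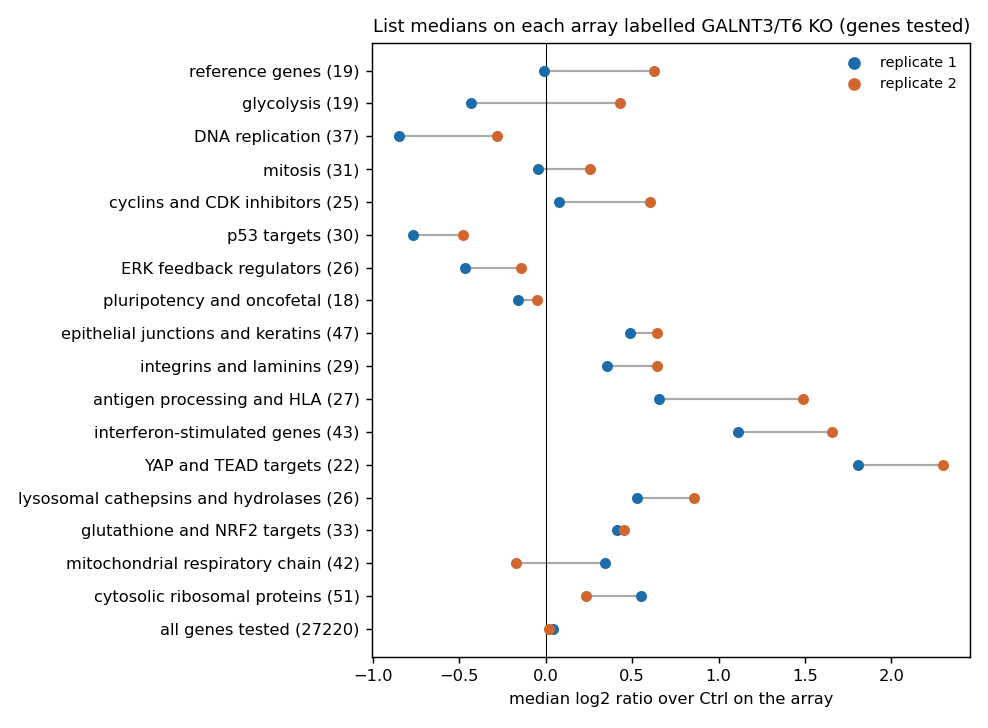
Median log2 ratio over Ctrl (horizontal) of 17 gene lists and of all genes tested (vertical, with the number tested), on replicate 1 and replicate 2 of the arrays labelled GALNT3/T6 KO. Glycolysis lies on both sides of 0, at -0.43 and 0.43, and the targets of YAP and TEAD and the interferon-stimulated genes lie to the right of 0 on both arrays.

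Set directly against the GALNT3 KO arrays, whose Ctrl has the same label but, as above, not the same signals, 3064 genes (11.3%) were higher and 3010 (11.1%) lower by limma. These counts fell to 740 and 475 without GALNT3 KO replicate 1 and to 844 and 581 without replicate 2. Of the lists above, interferon-stimulated genes were higher in 34 of 43 and lower in 3, YAP and TEAD targets in 15 of 22 and 1, caveolae in 7 of 8 and 0 and epithelial genes in 21 of 47 and 1. HOXB genes were lower in 8 of 10. Mitosis genes were higher in 14 of 31 and lower in 1, and their median was -0.60 on the GALNT3 KO arrays. GALNT3 differed by 4.76 (adjusted p = 0.000413), FN1 on its brightest probe by 3.59 (adjusted p = 0.00316) and MUC1 by 1.32 (adjusted p = 0.0176), each by limma. As the Ctrl signals of the largest rises differed between the groups of arrays, these differences rest on both channels.

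Medians differed between chromosomes. Genes on chromosome 11 had a median of 0.20, with 23.1% called higher and 9.23% lower, and those on chromosome 20 one of 0.12, with 22.5% and 8.80%. Chromosome 22 had a median of -0.17, with 5.34% higher and 32.7% lower, chromosome 13 one of -0.13 and chromosome 19 one of -0.11, with 9.02% and 24.1%. Both arrays showed these signs, at 0.20 and 0.21 for chromosome 11 and at -0.19 and -0.19 for chromosome 22. On the GALNT3 KO arrays the medians of these 5 chromosomes lay between -0.01 and 0.03. Genes of a chromosome are not independent, and no test was made.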

How the data were processed

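Gene expression was measured on 4 two-colour Agilent arrays of 1 slide, 2 for each group, with probe positions on hg19. The authors deposited scanner intensity values, a log10 ratio for each spot (Feature Extraction 10.7.3.1 per the file headers, 8.5.1.1 per the processing notes) and a table of log10 ratios, which matched the scanner ratios within 0.005. Here, the mean signal and background of each channel were corrected with normexp (offset 50), normalized by loess within arrays in limma 3.58.1 (R 4.3.3) and expressed as log2 ratios. Control spots and outlier spots were left out. Each gene was represented by 1 probe, the brightest of those that the scanner software passed over background, in Cy3 or Cy5, on each array of a group. Of the probes, 28078 were named by accession, 2577 by symbol and 333 by synonym, and 10012 kept the name in the file. Signals of single channels came from Aquantile scaling. All 4 arrays entered 1 limma fit with a mean for each group (2 residual degrees of freedom), tested against 0 with Benjamini-Hochberg adjustment over all genes. Where a channel of a called gene was not well above background on both arrays, the change is given as a bound. Signals of that channel below the lowest signal well above background were raised to it, and higher ones were kept. The labels do not say that replicates were separate cultures beyond being clones, so p-values measure the spread between these arrays. Of these steps, only the limma fit and its calls were tested on simulated log2 ratios.

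The arrays were taken by their titles, and both they and the gene lists were chosen with earlier results of these data known. Named genes were GALNT3, GALNT6, MUC1 and FN1, the 15 largest rises and falls, the 5 largest differences between replicates in each direction and the leading members of each list. The rises, falls and replicate differences were taken among genes with a symbol, well above background in both channels of both arrays. The rises and falls were also called, with the same direction on both arrays. This left out, among others, 135 genes dim only in Ctrl and 154 dim only in the clone channel on both arrays. Other members of the lists were named after their values were seen, to account for a list. A few members are counted in their lists but not reported by name here. Alternatives covered background correction, centring, the Agilent and deposited ratios, probe choice, filters, the test, a replicate block and each array left out.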

Additional observations from a re-analysis of the deposited data

Results flagged for a closer look

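The arrays labelled GALNT3/T6 KO and those labelled GALNT3 KO differed in their log2 ratio over the channel labelled Ctrl for 3 of the 4 study genes, by the limma test of the difference. GALNT3 was 4.76 higher on the former (adjusted p = 0.000413), FN1 3.59 higher (adjusted p = 0.00316) and MUC1 1.32 higher (adjusted p = 0.0176). All 3 were higher than Ctrl on both of the arrays labelled GALNT3/T6 KO. The Ctrl signal of GALNT3 also differed, at 7.63 and 7.65 on these arrays and 6.19 and 6.30 on the others, as did that of FN1, at 7.86 and 9.39 against 6.53 and 6.39. That of MUC1 was 9.33 and 9.60 against 9.47 and 9.10. The part of these signals in the differences was not tested.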

How the results depend on the processing

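Background correction, centring, the ratio of the scanner software, probe choice and filters kept the counts against Ctrl within 1.5 times of 3862 higher and 4580 lower, and GALNT3 and GALNT6 kept direction and call. Centring on the median gave 3380 and 5032. An unmoderated 1-sample t-test gave 0 higher and 1 lower (1449 and 1691 at an unadjusted p of at most 0.05), with an adjusted p of 0.224 for GALNT3 at 4.94 and for GALNT6 at -0.67, and it called none of the 235 named genes that limma called. Leaving out 1 array gave between 3258 and 4260 genes higher and between 3892 and 5133 lower, where a lone array is assumed to vary like the other group. Against GALNT3 KO the counts of 3064 and 3010 were 740 and 475 without GALNT3 KO replicate 1 and 844 and 581 without replicate 2, and over all arrays left out they reached 4168 and 4306. Of the 235 named genes called, 11 lost their call with only the 2 GALNT3/T6 KO arrays in the fit. The calls lost most often over 16 alternatives were those of IGF2 (9), HOXD10 (7), CAVIN1 (6), CDH1 (5) and ISG15 (5). KRT80 reversed to 0.18 with the mean of all probes, and with 1 GALNT3/T6 KO array left out AIF1L ranged from -2.97 to 1.01 (replicate 1 left out), PGK1 from -0.76 (replicate 2 left out) to 0.94 and ACTB from -0.70 (replicate 2 left out) to 0.71. The replicate numbers share no stated origin, and same-numbered arrays correlated at -0.238 in their deviations. With the replicate block 3774 genes were higher and 4417 lower, 2541 and 2219 against GALNT3 KO, and the adjusted p was 0.00109 for GALNT3 and 0.0164 for GALNT6. The crossed pairing, chosen after seeing the data, gave 3964 and 4705, and 3371 and 3537. Some named genes changed much less in an alternative than in the main fit. The value nearest 0 was 2.71 for DKK3, 2.57 for CDK6, 1.45 for LAMA3, 1.89 for IRF7 and 2.34 for CARD16. It was -2.75 for PCDH9, -1.74 for BMP7 and -1.99 for SEMA3D. Genes near background have compressed ratios.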
